A study of Neurospora crassa with 2 samples.

Results

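The core genes of the circadian clock of Neurospora crassa, a filamentous fungus, were followed in 2 strains grown on cellobiose. The members were 9 of the 9730 genes in the deposited table, chosen by locus tag through a rule that uses no measured value, though with earlier results of these data known: the positive regulators wc-1 and wc-2, their light-dependent partner vvd, the repressor gene csp-1, the negative regulators frq and frh, the kinase genes ck-1a and cka, and the F-box gene fwd-1. All 9 locus tags carry these symbols in the reference gene table, and all 9 were present in both libraries.

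In this fungus the proteins WC-1 and WC-2 form the White Collar Complex, which switches on the gene frq. The FRQ protein, held by its helicase partner FRH and bound to casein kinase 1a, leads to phosphorylation of the White Collar Complex and so to lower frq transcription. FRQ is itself phosphorylated step by step by casein kinases until the F-box protein FWD-1 marks it for degradation, and the cycle starts again. The same complex is the blue-light receptor of the fungus, so frq, vvd and csp-1 are known both as clock-driven and as light-induced genes.

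The Δ3βG strain lacks 3 β-glucosidase genes (gh1-1, gh3-3 and gh3-4), which the Δ3βGΔncw-1 strain lacks too, together with ncw-1, a gene for a cell wall protein that is not membrane-anchored. Mycelia of both were precultured for 20 h in MM, as the labels abbreviate the medium, moved to Vogel's salts with 1% cellobiose and harvested 4 h later. RNA sequencing gave 1 library per strain, scaled to 20510798 reads in Δ3βG and 20019350 in Δ3βGΔncw-1, and the deposited unit is RPKM, reads per kilobase of gene model per 1000000 reads. With 1 library per strain there is no test between strains, and no difference below has a replicate check. The time of day at harvest and whether the cultures stood in light or darkness were not among the details given with the samples, and no clock phase can be assigned to either library.

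Some facts of the whole libraries bear on all that follows. The level of ncw-1 (NCU05137) was 435 RPKM in Δ3βG and 2.62 RPKM in Δ3βGΔncw-1, lower as the labels call for but not 0. The 3 β-glucosidase genes lay between 0.342 and 1.09 RPKM in Δ3βG and between 0.350 and 3.41 RPKM in Δ3βGΔncw-1. The genotype labels of both strains end in the letter a, yet the mat A gene matA-1 was listed at 0 in Δ3βG and had 15.4 RPKM in Δ3βGΔncw-1. The pheromone precursor gene ccg-4 was likewise listed at 0 and at 87.9 RPKM, while mfa-1, the precursor gene of the other mating type, was at 141 and 35.0 RPKM. The strains thus differed both in ncw-1 and in transcripts of mating type, and the part of either in the differences below cannot be told apart.

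All 9 clock genes stayed short of the size rule, which was applied to genes with 10 RPKM or more in either library. It asks for at least 2-fold on the log2 scale of RPKM + 1. All 9 reached 10 RPKM in both libraries; 0 were 2-fold higher and 0 were 2-fold lower in Δ3βGΔncw-1. Of the 5989 genes tested in this way, 8.08% were 2-fold higher and 11.1% were 2-fold lower. In a set of 9, a count of 0 is near these shares and does not set the clock genes apart. The log2 ratios of the members ran from −0.78 for ck-1a to 0.26 for csp-1, with a median of −0.18. Over all genes tested the median was −0.32 and the middle 50% lay between −0.67 and 0.13. For the members the middle 50% lay between −0.53 and 0.096. In these bulk samples, fewer cells of a type and less RNA per cell cannot be told apart.

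Because the median gene lay 0.32 below zero on the log2 scale, each ratio is also given relative to that gene. Seen so, 5 members were above the median gene (csp-1, vvd, wc-1, wc-2 and frq) and 4 were below it (ck-1a, fwd-1, frh and cka). As deposited, 3 members were higher in Δ3βGΔncw-1 and 6 lower, beside 69.4% of all genes tested that were lower. Relative to the median gene the range of the members was −0.46 to 0.58, and 0 of them passed 2-fold, beside 11.3% of all genes tested that were higher and 5.74% that were lower by this rule. The 4 members below the median gene are the helicase gene, both kinase genes and the F-box gene, and the 5 above it are the White Collar genes, frq, vvd and csp-1. This grouping was made after the values had been seen and is a description.

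**Figure D1:**
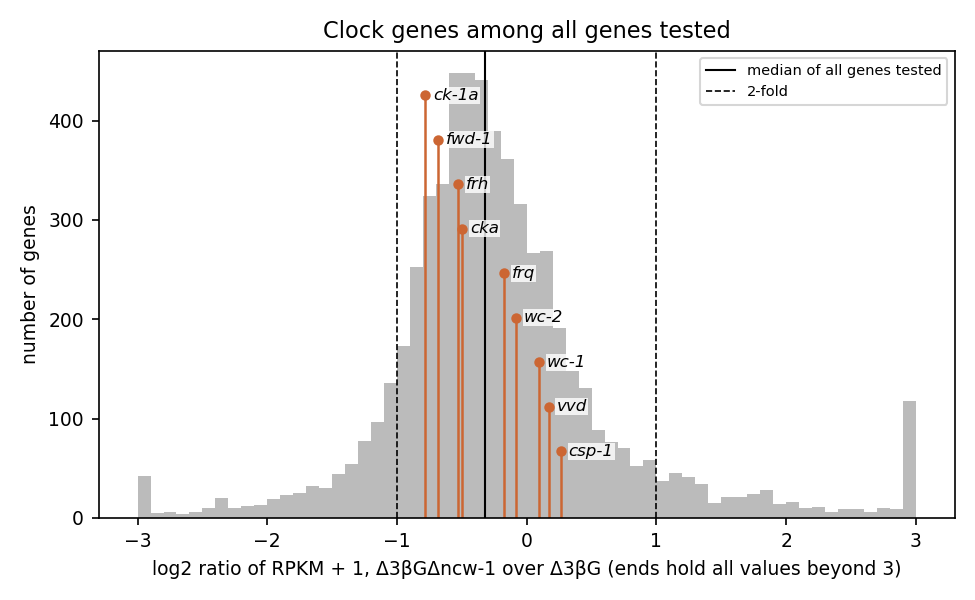
Number of genes by log2 ratio of RPKM + 1 (Δ3βGΔncw-1 divided by Δ3βG) for the 5989 genes tested, with each clock gene marked by a stem whose height carries no value. All 9 stems stand inside the dashed 2-fold lines, 4 to the left of the median gene at −0.32 and 5 to its right.

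The genes of the White Collar Complex were close to equal in both libraries. The gene wc-1 (NCU02356), for the photoreceptor subunit, was at 18.2 RPKM in Δ3βG and 19.6 RPKM in Δ3βGΔncw-1. From 2390 and 2502 recovered reads, the level in Δ3βGΔncw-1 was 1.07 times that in Δ3βG, with an exact 95% interval of 1.01 to 1.13 that covers counting error only, as do all intervals below. Its log2 ratio of 0.096 was 0.42 above the median gene. The partner gene wc-2 (NCU00902) was the more abundant of the pair per length, at 55.0 and 51.9 RPKM. It was 0.943 times as high in Δ3βGΔncw-1 (0.900 to 0.987), so the pair lay on opposite sides of equality by small margins. The log2 ratio of wc-2, −0.084, turned to 0.24 relative to the median gene and to 0.19 under trimmed mean scaling.

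The light-dependent partner and the repressor gene were slightly higher in Δ3βGΔncw-1. The gene vvd (NCU03967), whose small photoreceptor protein binds the White Collar Complex and dampens its response to light, was at 277 RPKM in Δ3βG and 312 RPKM in Δ3βGΔncw-1. These levels rest on 17899 and 19650 reads and gave a ratio of 1.12 (1.10 to 1.15). Among all genes of each library vvd stood at percentile 98.1 in Δ3βG and 97.9 in Δ3βGΔncw-1, so it was an abundant transcript in both strains. The gene csp-1 (NCU02713) encodes a transcriptional repressor that the White Collar Complex controls and that carries the rhythm to genes of metabolism. Its level was 36.5 RPKM in Δ3βG and 44.0 RPKM in Δ3βGΔncw-1, a ratio of 1.21 (1.13 to 1.29) and the highest among the members. Relative to the median gene csp-1 stood at a log2 ratio of 0.58, and 66.8% of all genes tested lay closer to that gene.

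The oscillator gene frq itself was near equal, and its partner frh was lower. The level of frq (NCU02265) was 39.5 RPKM in Δ3βG and 34.8 RPKM in Δ3βGΔncw-1, from 3504 and 3018 reads. This is 0.882 times as high in Δ3βGΔncw-1 (0.840 to 0.927), and the log2 ratio of −0.18 turned to 0.14 relative to the median gene and to 0.099 under trimmed mean scaling. The frq locus is known to give an antisense transcript, qrf, as well, and use of strand in counting is not stated, so the value may hold reads of both. The gene frh (NCU03363), for the essential RNA helicase that FRQ needs to be stable, was the lowest member in each library, with 17.2 RPKM in Δ3βG and 11.6 RPKM in Δ3βGΔncw-1. It was 1.48-fold lower in Δ3βGΔncw-1 (1.37 to 1.61) on 1509 and 994 reads, and stayed 0.21 below the median gene on the log2 scale (−0.21).

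Both kinase genes were lower in Δ3βGΔncw-1 and were among the most abundant members. The gene ck-1a (NCU00685), for the casein kinase that rides on FRQ and sets the pace of the clock, was at 321 RPKM in Δ3βG and 186 RPKM in Δ3βGΔncw-1. The difference of 1.72-fold (1.68 to 1.76) was the largest of the 9 and still short of 2-fold. Its paralogue ck-1b (NCU04005), looked up after the members, had 179.8 and 99.1 RPKM, 1.81-fold lower (1.77 to 1.86). The gene cka (NCU03124), for the catalytic subunit of casein kinase 2 and known from the period mutant prd-3, was at 147 and 104 RPKM, 1.41-fold lower (1.36 to 1.47). Relative to the median gene these log2 ratios were −0.46 for ck-1a, −0.53 for ck-1b and −0.18 for cka.

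The F-box gene fwd-1 (NCU04540), whose product recruits phosphorylated FRQ to a ubiquitin ligase, was at 72.1 RPKM in Δ3βG and 44.6 RPKM in Δ3βGΔncw-1. It was 1.62-fold lower (1.55 to 1.69), or −0.36 relative to the median gene. In the reference annotation 224 bases of the fwd-1 span overlap NCU04541, which had 78.7 and 40.9 RPKM and was 1.92-fold lower (1.79 to 2.07). Reads of the shared stretch may count for either gene.

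**Figure D2:**
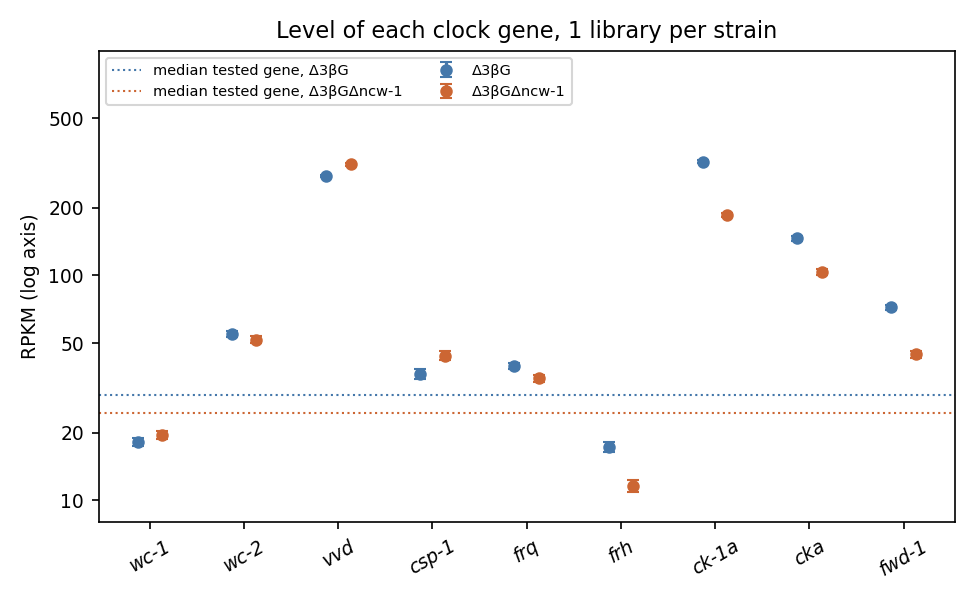
RPKM of each clock gene on a log axis, Δ3βG in blue and Δ3βGΔncw-1 in orange, with exact 95% Poisson intervals of the recovered reads. Dotted lines mark the median of the genes tested, 29.4 RPKM in Δ3βG and 24.4 RPKM in Δ3βGΔncw-1; wc-1 and frh lie below it in both libraries and the other 7 above it.

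RPKM is per length, so the members can also be ranked within a library. In Δ3βG the order from high to low was ck-1a, vvd, cka, fwd-1, wc-2, frq, csp-1, wc-1 and frh, spanning 18.6-fold. In Δ3βGΔncw-1 it was vvd, ck-1a, cka, wc-2, fwd-1, csp-1, frq, wc-1 and frh, spanning 26.8-fold. Neighbours changed places at 3 points, between ck-1a and vvd, between fwd-1 and wc-2, and between frq and csp-1. In Δ3βG the level of ck-1a was 1.16 times that of vvd (1.13 to 1.18), and in Δ3βGΔncw-1 vvd was 1.67 times as high as ck-1a (1.63 to 1.71). The genes wc-1 and frh did not differ beyond counting error in Δ3βG (ratio 1.06, 0.993 to 1.13), nor did fwd-1 and csp-1 in Δ3βGΔncw-1 (1.01, 0.959 to 1.07). All other neighbours in the 2 orders differed by more than counting error.

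Ratios between partners within a library do not move with how the libraries are scaled. The ratio of frq to frh RPKM was 2.29 in Δ3βG (2.16 to 2.44) and 3.00 in Δ3βGΔncw-1 (2.79 to 3.22). It was 1.31 times as high in the latter (Wald 95% interval of the odds ratio 1.19 to 1.44). The ratio of frq to its activator gene wc-1 went the other way, from 2.16 to 1.78, which is 0.823 times as high (0.764 to 0.886). Between the strains frq thus stood between its partner frh and its activator gene wc-1. For wc-1 to wc-2 the ratios were 0.332 and 0.377, a change of 1.14 times (1.06 to 1.22).

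The ratio of vvd to wc-1 was the steadiest of the 6 ratios computed, with 15.2 in Δ3βG and 15.9 in Δ3βGΔncw-1. Its change of 1.05 times (0.988 to 1.11) was within counting error. Between the kinase genes the balance was lower, with ck-1a at 2.19 times cka in Δ3βG and 1.80 times in Δ3βGΔncw-1, a change of 0.822 times (0.785 to 0.860). The largest change among the 6 was that of fwd-1 to frq, the degradation gene against its target, from 1.83 to 1.28, or 0.701 times as high (0.657 to 0.748). None of these intervals holds any variation between cultures, nor the possible reads of NCU04541 in fwd-1 and of qrf in frq.

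**Figure D3:**
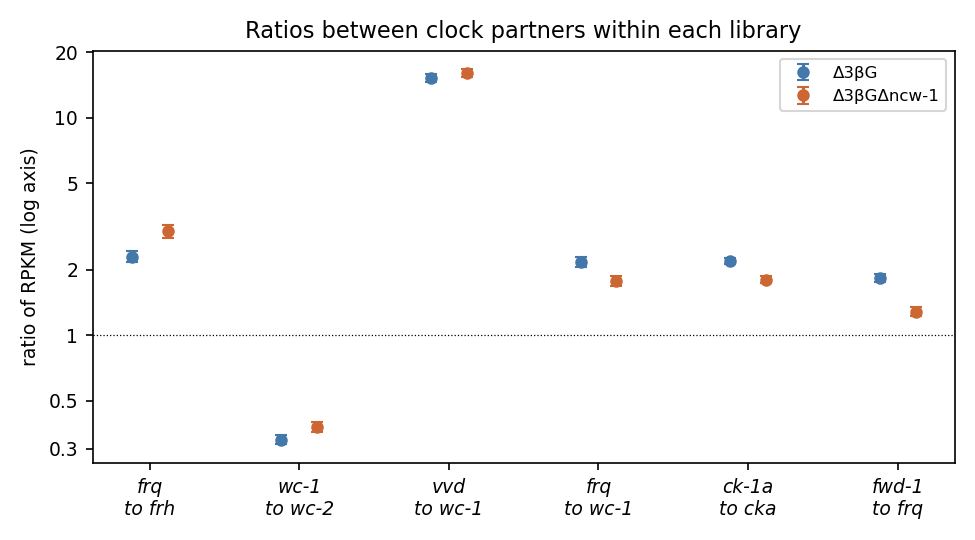
Ratio of the RPKM of 2 clock genes within a library, on a log axis, with exact 95% counting intervals; blue is Δ3βG and orange Δ3βGΔncw-1. The points for vvd to wc-1 are close together at 15.2 and 15.9, and those for fwd-1 to frq are apart at 1.83 and 1.28.

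The kinases and phosphatases that act on clock proteins also stayed inside the 2-fold limits. All 10 of this list reached 10 RPKM; 0 were 2-fold higher and 0 were 2-fold lower, beside 8.08% and 11.1% of all genes tested, and the median log2 ratio was −0.19. The regulatory subunit gene of casein kinase 2, ckb-1 (NCU05485), was the furthest from equal, with 68.0 RPKM in Δ3βG and 38.3 RPKM in Δ3βGΔncw-1, 1.78-fold lower (1.67 to 1.89). The second regulatory subunit gene, ckb-2 (NCU02754), was at 53.0 and 34.3 RPKM, 1.55-fold lower (1.44 to 1.66). The 3 casein kinase 2 genes, cka, ckb-1 and ckb-2, were lower in Δ3βGΔncw-1, beside 69.4% of all genes tested. The 3 also lay below the median gene, as did 2994 of the 5989 genes tested. The gene pph-1 (NCU06630), for a protein phosphatase catalytic subunit, was at 102 and 65.0 RPKM (1.56-fold lower, 1.495 to 1.63). Of protein kinase A, the catalytic subunit gene pkac-1 and the regulatory subunit gene mcb were slightly the other way, at 51.5 and 56.9 RPKM and at 47.0 and 52.6 RPKM. The other catalytic subunit gene, pkac-2, which is not in this list, was lower in Δ3βGΔncw-1, at 99.6 and 55.9 RPKM.

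Genes of the machinery that degrades FRQ went both ways within 2-fold. Of 8 genes, the COP9 signalosome genes csn-1 to csn-7 and the cullin gene cul-1, 0 were 2-fold higher and 0 were 2-fold lower, beside 8.08% and 11.1% of all genes tested, and the median log2 ratio was −0.21. The scaffold of the ubiquitin ligase, cul-1 (NCU05204), was at 81.4 RPKM in Δ3βG and 53.5 RPKM in Δ3βGΔncw-1. It was 1.52-fold lower (1.46 to 1.59), next to 1.62-fold for fwd-1, the F-box gene of the same ligase. The signalosome gene csn-1 (NCU00157) was higher, at 30.8 and 43.5 RPKM (1.41 times, 1.32 to 1.52), while csn-5 (NCU00467) was lower, at 45.3 and 32.2 RPKM (1.41-fold, 1.30 to 1.52). The 6 signalosome genes other than csn-1 lay between −0.48 and 0.24 in log2 ratio.

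Among genes for chromatin factors known at the frq locus, 7 of 9 reached 10 RPKM, 0 were 2-fold higher or lower, beside 8.08% and 11.1% of all genes tested, and the median log2 ratio was −0.50. The histone methyltransferase gene set-1 (NCU01206) was at 23.2 and 13.1 RPKM, 1.76-fold lower (1.65 to 1.88). The gene hpo (NCU04017), for heterochromatin protein 1, was at 40.1 and 23.5 RPKM, 1.71-fold lower (1.58 to 1.84). The corepressor genes rco-1 and rcm-1 lay closer to equal, at 128 and 120 RPKM and at 108 and 122 RPKM.

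A further list was compiled as other period genes and frq RNA factors. It held prd-6 (NCU04242) and 2 loci with no symbol in the reference table. The gene prd-6 is for an RNA helicase of nonsense-mediated decay and is known from a period mutant. Of the 3 genes in this list, 0 were 2-fold higher and 1 was 2-fold lower, beside 8.08% and 11.1% of all genes tested. The median log2 ratio of the list was −0.44. NCU07839 was at 51.8 RPKM in Δ3βG and 8.18 RPKM in Δ3βGΔncw-1, from 3481 and 536 reads. It was below 10 RPKM in Δ3βGΔncw-1, so it could be tested only by being higher in Δ3βG, which fixed its direction. It was 6.34-fold lower (5.79 to 6.955) and, measured against the median gene, still past 2-fold at a log2 ratio of −2.20. The other 2 were near the median gene, prd-6 with 44.6 and 33.8 RPKM and NCU01019 with 54.9 and 40.3 RPKM.

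Known targets of the White Collar Complex went both ways. Of 10 that reached 10 RPKM, 2 were 2-fold higher and 1 was 2-fold lower, beside 8.08% and 11.1% of all genes tested, with a median log2 ratio of 0.46. Measured against the median gene the counts were 3 higher and 0 lower, beside 11.3% and 5.74%. The cryptochrome gene cry (NCU00582), for a blue-light photoreceptor, was at 3.61 RPKM in Δ3βG and 31.7 RPKM in Δ3βGΔncw-1, 8.77 times as high (7.79 to 9.92). It was below 10 RPKM in Δ3βG, so it could be tested only by being higher in the other library. The counts of 2 and 3 higher and the median include it. The gene bli-4 (NCU08699), at 9.51 and 13.5 RPKM, likewise reached 10 RPKM in Δ3βGΔncw-1 alone. The phytoene desaturase gene al-1 (NCU00552) was at 32.7 and 120 RPKM (3.66 times, 3.46 to 3.88). In the same carotenoid pathway al-3 (NCU01427), for geranylgeranyl diphosphate synthase, was lower, at 235 and 99.1 RPKM (2.37-fold, 2.29 to 2.45), and was within 2-fold relative to the median gene. The members vvd, frq and csp-1, targets of the same complex, differed by ratios of 0.882 to 1.21.

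Genes first isolated as clock-controlled went both ways. Of 8 that reached 10 RPKM, 4 were 2-fold higher and 1 was 2-fold lower, beside 8.08% and 11.1% of all genes tested, with a median log2 ratio of 1.12. Of the 4 higher, ccg-6 (NCU01418) at 1132 and 2792 RPKM and ccg-13 (NCU08907) at 21.7 and 88.3 RPKM reached 10 RPKM in both libraries. The others were ccg-9 (NCU09559), for trehalose synthase, at 6.63 and 34.3 RPKM and ccg-14 (NCU07787) at 8.11 and 25.9 RPKM. Measured against the median gene, 6 were higher and 1 was lower, beside 11.3% and 5.74% of all genes tested. Both ccg-9 and ccg-14 were below 10 RPKM in Δ3βG, which fixed their direction. The counts of 4 and 6 higher and the median of 1.12 include these 2 genes. As background, many clock-controlled genes also respond to carbon source and development. The lower one was the hydrophobin gene eas (NCU08457), also called ccg-2, with 60350 RPKM in Δ3βG and 1746 RPKM in Δ3βGΔncw-1, 34.6-fold lower (34.2 to 34.9).

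Among the accessory photoreceptor genes 3 of 4 reached 10 RPKM, of which 1, cry, was 2-fold higher and 1, the opsin gene nop-1 (NCU10055), 2-fold lower, beside 8.08% and 11.1% of all genes tested; nop-1 was at 103 and 32.6 RPKM (3.15-fold, 2.96 to 3.36). The phytochrome genes phy-1 and phy-2 were low in both strains, at 11.8 and 7.99 RPKM and at 2.13 and 0.728 RPKM. Of the genes tested, cry was below 10 RPKM in Δ3βG and phy-1 was below it in Δ3βGΔncw-1. Each could be tested only through the library where it was higher, which fixed its direction. The list's median log2 ratio was −0.51, which is the value of phy-1.

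**Figure D4:**
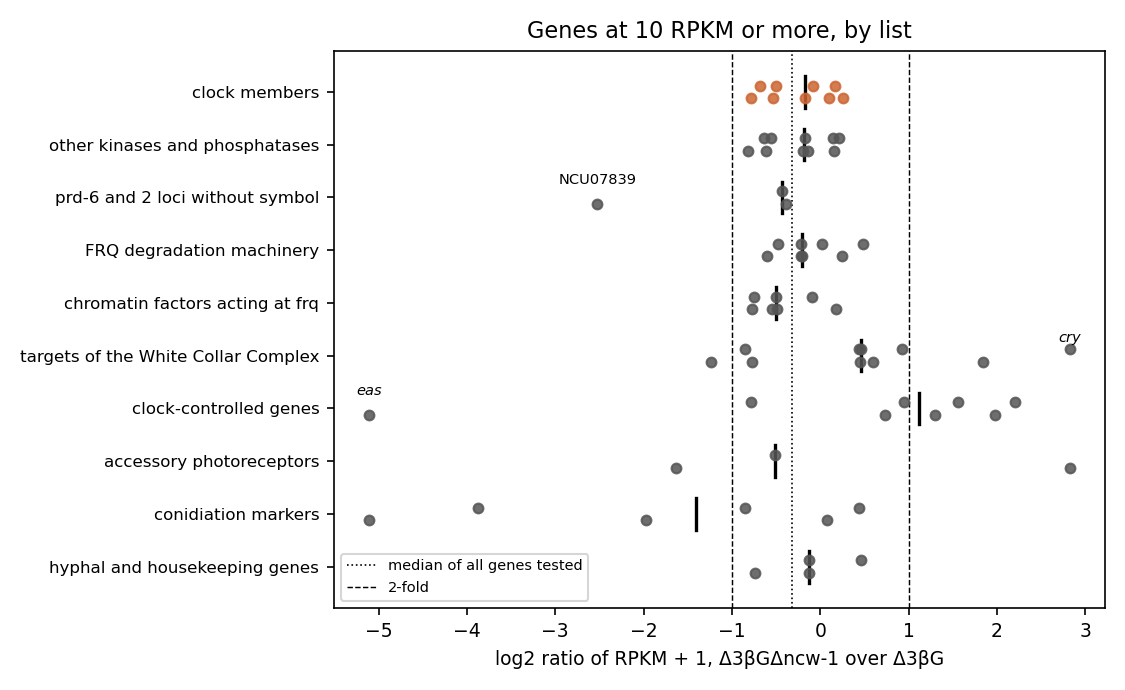
Log2 ratio of RPKM + 1 (Δ3βGΔncw-1 divided by Δ3βG) of each gene at 10 RPKM or more by list; black bars are list medians and the dotted line is the median of all genes tested at −0.32. The clock genes (orange) lie between −0.78 and 0.26, and eas lies at −5.11. The highest points of their lists, cry and ccg-9, were below 10 RPKM in Δ3βG. NCU07839, the lowest point of its list, and acon-3 were below 10 RPKM in Δ3βGΔncw-1. All genes tested ran from −7.37 to 8.57.

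Some markers of conidiation, the formation of asexual spores, were lower in Δ3βGΔncw-1. Of 7 marker genes 6 reached 10 RPKM, 3 were 2-fold lower and 0 higher, beside 11.1% and 8.08% of all genes tested, and none was at 0 in either library. Their summed level was 61288 RPKM in Δ3βG and 2523 RPKM in Δ3βGΔncw-1, most of it eas. The regulator gene acon-3 was at 43.9 and 2.07 RPKM (21.2-fold lower, 17.2 to 26.4). Being below 10 RPKM in Δ3βGΔncw-1, it could be tested only through Δ3βG, which fixed its direction. Another regulator gene, fl, was at 49.9 and 11.99 RPKM (4.16-fold lower, 3.84 to 4.51). Within 2-fold, con-6 was lower, at 284 and 157 RPKM. Also within 2-fold, con-8 and con-10 were higher, at 487 and 514 RPKM and at 66.1 and 90.0 RPKM. The hyphal marker hex-1, for the Woronin body protein, was at 3247 and 2970 RPKM. The part of conidiation in the values of the clock genes was not tested. In a list of 4 hyphal and housekeeping genes 0 were 2-fold higher or lower, beside 8.08% and 11.1% of all genes tested, and its extremes were the β-tubulin gene Bml at 523 and 314 RPKM and the elongation factor gene tef-1 at 1962 and 2710 RPKM, a range of log2 ratios of −0.74 to 0.47 that is about as wide as that of the clock genes.

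The scaling of the libraries moved all 9 clock genes together and did not carry any of them past 2-fold. With RPKM scaled to equal sums the log2 ratios lay between −0.84 and 0.21, and under median centring between −0.46 and 0.58. The signs of csp-1, vvd and wc-1 (higher) and of ck-1a, fwd-1, frh and cka (lower) were the same under all 4 scalings, whereas frq and wc-2 were lower under 2 scalings and higher under the other 2.

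**Figure D5:**
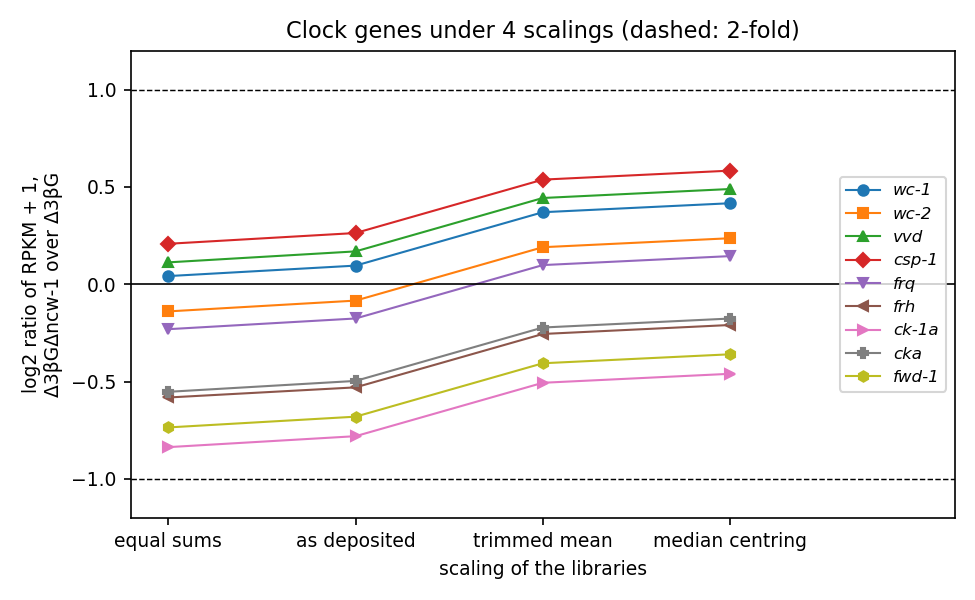
Log2 ratio of RPKM + 1 of each clock gene (Δ3βGΔncw-1 divided by Δ3βG) with the libraries scaled in 4 ways. All points lie inside the dashed 2-fold lines, and the lines of frq and wc-2 cross zero between the deposited values and the trimmed mean.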

How the data were processed

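RNA was sequenced from mycelia of 2 strains, 1 library each. Per the labels' protocols total RNA was extracted with TRIzol and cleaned on RNeasy columns. The submitters' processing notes name TopHat2 2.0.8b, HTSeq 0.5.4p2 and DESeq 1.5.1 without roles; for genome build, annotation and strand use the sources used here give nothing, and no coordinates are printed. RPKM values were deposited by the authors in 1 column for each library, per the file headers, and were matched by sample identifier; 0 columns were left unused.

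Of 9730 genes, 9729 matched the NC12 reference gene table, used for symbols, overlaps and spans. Ratios are log2 of RPKM + 1, which understates changes of low genes; 2-fold with 10 RPKM in either library was the size rule, and no p-value was computed. The 5989 genes tested include ncw-1. Library totals were recovered as the commonest whole value from genes with a single read whose model equals the span, met by 46 and 49 genes. Model lengths of at least 50% of the span were then accepted where both libraries gave whole reads, within 1e-06 reads plus 1e-09 of the read number; all 9264 genes above 0 in the reference had such a length. Where several lengths were possible the shortest of these was used, which widens the interval. For 8 of 9 members it was the sole solution; for ck-1a a shorter one (1513 bases, 9960 and 5647 reads) gives an interval of 0.562 to 0.600 for the ratio, against 0.568 to 0.594. Intervals at 95% are exact Clopper-Pearson or Poisson, except for the changes in partner ratios. The intervals of these changes are Wald intervals of the odds ratio. Reads are not independent molecules, so all intervals cover counting error only. The steps were tested on simulated data (python 3.11.15, scipy 1.17.1). The members, lists and tests were chosen with earlier results of these data known. Lists came from general knowledge by symbol or locus tag; 67 of 73 entries matched. Named are all members, ncw-1, mating-type transcripts and, per list, up to 4 genes past 2-fold or else the 2 furthest from zero; other genes were named after their values were seen.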

Additional observations from a re-analysis of the deposited data

How the results depend on the processing

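The counts of clock genes past 2-fold, 0 higher and 0 lower, were the same under all 8 alternatives. The median log2 ratio of the members, −0.18, was −0.50 with a minimum of 50 RPKM, which 5 members reached, 0.14 under median centring and 0.099 with trimmed mean scaling. Over all genes tested, the count lower was 665 as reported, 426 with a pseudocount of 5 RPKM, 344 with median centring and 378 with trimmed mean scaling; with a minimum of 50 RPKM it was 241 with 268 higher, against 484 higher as reported. The share of calls that were higher was 42.1% as reported, 66.3% with median centring and 63.1% with trimmed mean scaling. Of 68 single-gene values under the alternatives 64 kept their sign, and the 4 others were frq and wc-2 under the last 2 scalings. Changing the minimum alters only which genes are tested, never a ratio. The values with a minimum of 5 RPKM (9), of 50 RPKM (5) and with none (9) could therefore not change. Nor could these settings carry a member past 2-fold. Of the 68 values, 20 moved beyond counting error. Each of the 9 members did so when trimmed mean scaling was used, and again with median centring. With RPKM scaled to equal sums, vvd and ck-1a did. No paired analysis was possible because each strain has 1 library; for the same reason no replicate could be left out.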
